A study of Homo sapiens with 10 samples.

Results

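CTCF, cohesin and the cohesin loaders were followed as a set of 10 genes out of the 59386 listed in each count table. The members were matched by gene symbol and were chosen with earlier results of these data known. They were *CTCF*, the core cohesin genes *SMC1A*, *SMC3* and *RAD21*, the STAG subunits *STAG1* and *STAG2*, and the loader genes *NIPBL* and *MAU2*. *PDS5A* and *PDS5B*, whose products bind the ring and regulate how long it stays on chromatin, completed the set. All 10 passed the filter on low counts, which 16899 genes passed. They were measured by poly-A RNA-seq in VCaP, an established line of human prostate cancer cells, 72 h after transfection with Lipofectamine RNAiMAX. There were 5 groups of 2 libraries each, namely a control, a pair of groups with siRNAs A or B against *SMARCA4* and a pair with siRNAs A or C against *SMARCA1*, with 30 pmol given as the amount of targeting siRNA. No amount of siRNA is given for the controls, whose labels say only control. *SMARCA4* encodes BRG1, an ATPase of SWI/SNF remodelers, and *SMARCA1* encodes SNF2L, an ATPase of ISWI remodelers. All libraries come from 1 cell line, and the labels do not say whether replicates were separate cultures, so p-values measure only the spread between these libraries, which may be technical. The comparisons ask whether transcripts of the chromatin looping machinery differ when either remodeler is depleted.

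Cohesin is a ring that extrudes loops of chromatin. NIPBL, with MAU2, loads it and drives the extrusion, while CTCF bound to its motif stops the ring and so sets loop anchors and domain borders. Each ring carries either STAG1 or STAG2, and PDS5 proteins together with WAPL help to release it. ISWI remodelers are known for spacing nucleosomes around CTCF sites.

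Each library held between 23898545 and 34667965 counts. *SMARCA4* lay at 242 and 268 CPM (counts relative to the library total, scaled by the trimmed mean of M values, TMM) in the controls and between 13.3 and 25.2 CPM with its own siRNAs, while *SMARCA1* lay at 32.3 and 31.5 CPM in the controls and between 1.75 and 3.40 CPM with its own siRNAs. With *SMARCA4* siRNAs, *SMARCA1* lay above the controls, between 57.4 and 83.8 CPM. The 10 prostate and epithelial markers checked for VCaP, among them *KLK2*, *ERG* and *EPCAM*, were present in every library (at least 56.9 CPM), whereas *PTPRC* and *KRT5* were at or near 0 (at most 0.0343 CPM). In the whole list of 5 markers of other cells, *PECAM1* reached 0.444 CPM, *ACTA2* 7.34 CPM and *COL1A1* 17.8 CPM. The CPM of markers are relative to library totals without TMM scaling. Genes of the interferon response took 0.0242% and 0.0245% of counts in the controls and between 1.51% and 3.91% in the 8 knockdown libraries, and all 15 listed rose in both knockdowns. Every fold change to control below was therefore measured in cells whose interferon genes also rose, and the part of that response in the results was not tested. In bulk samples, fewer cells expressing a gene and less RNA per cell cannot be told apart.

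One library stood apart for these genes. The 10 genes together took 0.141% of counts in *SMARCA1* siRNA A replicate 1 and between 0.166% and 0.217% in the other 9 libraries. *NIPBL* lay at 122 CPM in that library and 241 CPM in its replicate. Between these replicates the median absolute difference over the 10 genes was 0.69 on the log2 scale, against 0.06 to 0.08 within the other 4 groups, and all 10 genes were lower in replicate 1. The difference moved with exon length across the 9481 genes with a mean of at least 10 CPM. In *SMARCA1* siRNA A, the median log2 of replicate 1 to replicate 2 was 0.33 in genes with 1000 to 2000 exon bases and -0.44 in genes with at least 12000, whereas in the other groups the bin medians stayed between -0.09 and 0.11. The 10 genes are long (5683 to 13187 exon bases), and all but *MAU2* and *CTCF* lay below the median of their length bin. What set this library apart was not tested, and the folds and counts that include it are also given without it.

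**Figure D1:**
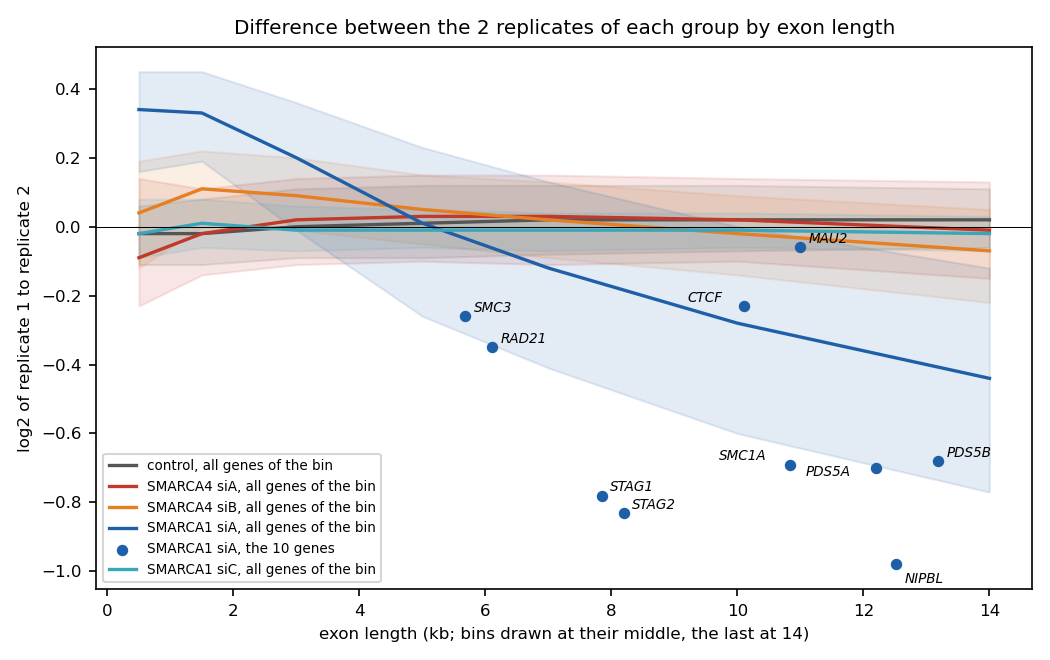
Log2 ratio of replicate 1 to replicate 2 (vertical axis) against exon length in kb (horizontal axis) for each of the 5 groups. Lines are medians and shaded bands quartiles of genes with a mean of at least 10 CPM, and blue points are the 10 genes in the *SMARCA1* siRNA A pair. That pair falls with length from a median of 0.34 to -0.44, *NIPBL* lies lowest at -0.98, and the other 4 groups stay near 0.

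Transcript levels were compared between genes per kb of exon. *RAD21*, the subunit that closes the ring and is cut by separase, had by far the most transcript in controls, 132 CPM per kb ± 6.92 (SD, n = 2). *SMC3* followed at 30.5 ± 0.226, *PDS5A* at 26.4 ± 1.39, *SMC1A* at 16.3 ± 0.315, *NIPBL* at 15.5 ± 0.0822, *STAG2* at 15.5 ± 1.47, *CTCF* at 10.5 ± 0.0638, *STAG1* at 10.2 ± 0.690, *PDS5B* at 7.34 ± 0.175 and *MAU2* at 3.86 ± 0.285 CPM per kb. Among neighbours in this order, the control ranges overlapped for *NIPBL* and *STAG2* and for *CTCF* and *STAG1*. The order of the top 3 genes held in 10 of 10 libraries, as did *PDS5B* above *MAU2*. *SMC1A* was above *NIPBL* in only 3 of 10 libraries.

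**Figure D2:**
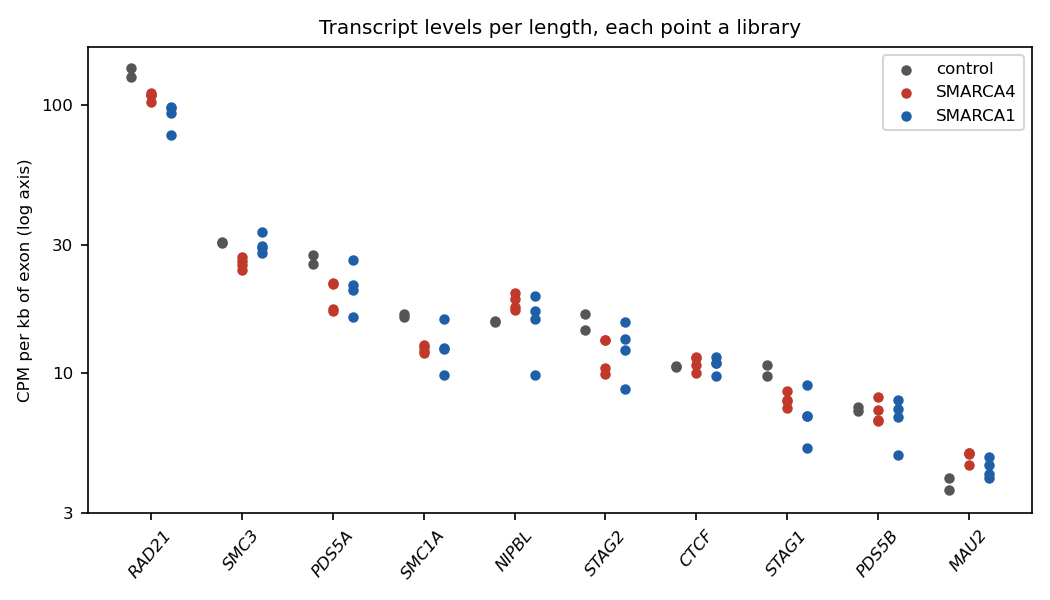
Transcript level in CPM per kb of exon on a log axis for the 10 genes, ordered by their control mean. Each point is 1 library of the controls (grey), *SMARCA4* knockdown (red) or *SMARCA1* knockdown (blue). *RAD21* lies highest and *MAU2* lowest in all 10 libraries.

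With *SMARCA4* siRNAs, 3 of the 10 genes passed the test across all genes (edgeR quasi-likelihood, Benjamini-Hochberg adjusted p below 0.05). *RAD21* and *PDS5A* fell and *MAU2* rose. Of all 16899 genes, 45.1% passed in this comparison, 22.3% lower and 22.8% higher, so the share among the 10 genes was not above that of the transcriptome. The median log2 fold change was -0.27 over the 10 genes and 0.00 over all genes tested. The 4 knockdown libraries lay wholly outside both controls for 8 of the 10 genes, against 58.5% of all genes. Of these 8 genes, 6 lay below the controls and 2, both loader genes, lay above.

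*CTCF*, the zinc finger factor that anchors loops, lay at 106 and 107 CPM in controls, 115 and 101 with *SMARCA4* siRNA A, and 108 and 114 with siRNA B. These libraries overlapped the controls, and the log2 fold change of 0.04 had a 95% interval of -0.19 to 0.26 (adjusted p = 0.788). Without *SMARCA1* siRNA A replicate 1 the interval was -0.11 to 0.21.

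Among the ring genes, *RAD21* lay at 835 and 775 CPM in controls, 667 and 673 with *SMARCA4* siRNA A, and 666 and 623 with siRNA B. All 4 knockdown values lay below both controls, at a mean of 81.7% of control, and *RAD21* fell by 0.29 on the log2 scale (SE 0.11, adjusted p = 0.0487). That call was lost with DESeq2 (adjusted p = 0.0555), and in edgeR with RLE scaling (0.0545), without a filter (0.0556) and with a replicate block (0.0527). It was kept with upper quartile scaling (0.0202) and library totals (0.0413). Neither siRNA alone passed in edgeR (adjusted p = 0.133 for A and 0.0616 for B). *SMC1A*, an ATPase arm of the ring, lay at 174 and 179 CPM in controls, 137 and 131 with siRNA A, and 128 and 135 with siRNA B. The groups did not overlap, and the mean was 75.2% of control, but the log2 fold change of -0.41 (SE 0.15) missed the threshold with an adjusted p of 0.0510. *SMC3*, the other ATPase arm, lay at 173 and 174 CPM in controls, 154 and 149 with siRNA A, and 143 and 137 with siRNA B, with a log2 fold change of -0.25 (SE 0.10, adjusted p = 0.0534). Its 4 knockdown values also lay below both controls.

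Both STAG genes lay below the controls in all 4 *SMARCA4* knockdown libraries without passing the test. *STAG1* was measured at 83.6 and 75.9 CPM in controls, 66.8 and 62.1 with siRNA A, and 57.9 and 61.7 with siRNA B (log2 fold change -0.36, SE 0.17, adjusted p = 0.111). *STAG2*, the more abundant of the pair per length, was measured at 135 and 118 CPM in controls, 109 and 109 with siRNA A, and 85.5 and 81.4 with siRNA B (log2 fold change -0.41, SE 0.18, adjusted p = 0.0908). For *STAG2* the siRNA B libraries lay below those of siRNA A. Of the exon bases of *STAG1*, 21.2% are shared with *PCCB* on the opposite strand, as are 12.9% of those of *RAD21* and 13.1% of those of *CTCF* with other opposite-strand genes, and whether the counting used strand is not given in the sources used here.

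The loader genes lay above the controls. *MAU2* was measured at 40.2 and 44.6 CPM in controls, 55.0 and 49.6 with siRNA A, and 54.7 and 55.2 with siRNA B, and rose by 0.34 on the log2 scale (SE 0.10, adjusted p = 0.0163). *NIPBL* lay at 194 and 195 CPM in controls, 235 and 221 with siRNA A, and 214 and 248 with siRNA B. All 4 values were above both controls, with a log2 fold change of 0.24 (SE 0.21, adjusted p = 0.384).

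Of the PDS5 paralogues, *PDS5A* passed the test and *PDS5B* did not. *PDS5A* lay at 334 and 311 CPM in controls, 264 and 262 with siRNA A, and 211 and 207 with siRNA B, and fell by 0.46 on the log2 scale (SE 0.16, adjusted p = 0.0348). *PDS5B* lay at 98.5 and 95.2 CPM in controls, 107 and 95.4 with siRNA A, and 86.9 and 88.1 with siRNA B, on both sides of the controls, with a log2 fold change of -0.04 (95% interval -0.39 to 0.31, adjusted p = 0.857).

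**Figure D3:**
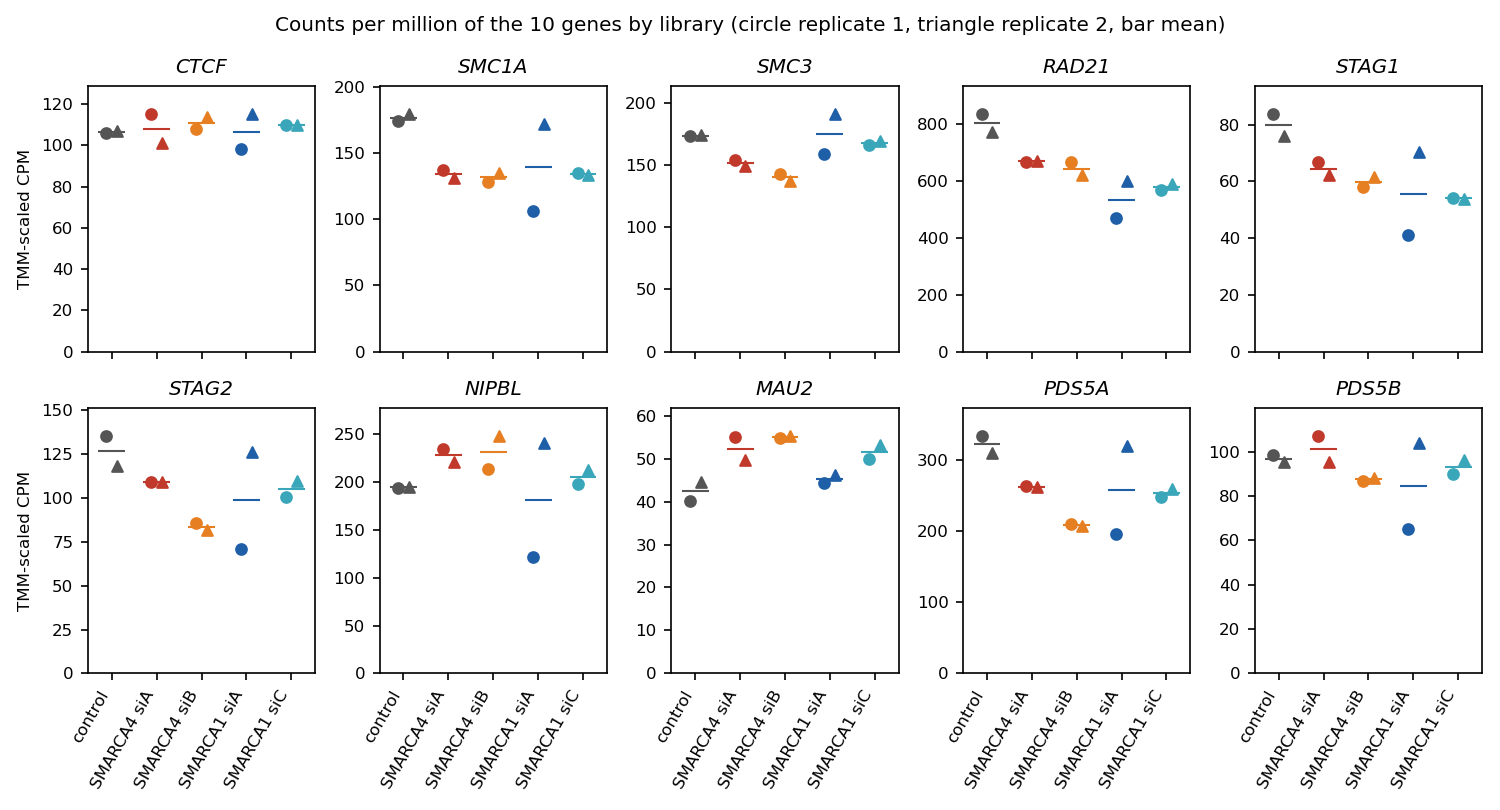
CPM (vertical axis, from 0) of each of the 10 genes in the 10 libraries, by group. Circles are replicate 1, triangles replicate 2 and bars group means. The *CTCF* values stay between 98.1 and 115 CPM in every library, the *SMARCA4* knockdown values of *SMC1A*, *RAD21* and *PDS5A* lie below both controls, and the *SMARCA1* siRNA A pair is wide apart for most genes.

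The calls depended on the 2 *SMARCA1* siRNA A libraries, which enter the shared estimate of the spread although they are not part of the comparison. Without replicate 1 of that group, 8 of the 10 genes passed in *SMARCA4* knockdown (52.0% of all genes passed), and the same 8 passed without replicate 2 (51.8% of all genes). *SMC1A*, *SMC3*, *RAD21*, *STAG1*, *STAG2* and *PDS5A* then fell and *NIPBL* and *MAU2* rose. Without replicate 1, the fold changes themselves hardly moved, and *SMC1A* fell by 0.40 (SE 0.06, adjusted p = 0.000567) and *NIPBL* rose by 0.25 (SE 0.08, adjusted p = 0.0272) on the log2 scale. With a trend on exon length removed from each library, 7 of the 10 genes passed (47.6% of all genes). The calls also depended on single libraries of the other groups, and leaving 1 out leaves its group with 1 library. With any single library left out, log2 fold changes in *SMARCA4* knockdown spanned -0.32 to -0.20 for *RAD21*. They spanned -0.48 to -0.37 for *PDS5A* and 0.30 to 0.44 for *MAU2*.

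With *SMARCA1* siRNAs, *RAD21* and *STAG1* fell and the other 8 genes did not pass the test. Across all genes, 46.8% passed, 23.0% lower and 23.8% higher. The median log2 fold change was -0.22 over the 10 genes and 0.00 over all genes, and the value over the 10 genes was -0.06 without siRNA A replicate 1 and -0.39 without replicate 2. The 4 knockdown libraries lay wholly outside the controls for 3 of the 10 genes (58.2% of all genes), *SMC1A*, *RAD21* and *STAG1*, all below. Without siRNA A replicate 1, the remaining libraries lay outside the controls for 6 of the 10 genes (67.3% of all genes), with *CTCF*, *NIPBL* and *MAU2* above.

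*RAD21* lay at 471 and 600.4 CPM with *SMARCA1* siRNA A and 570.4 and 592 with siRNA C, below both controls in all 4 libraries, at a mean of 69.4% of control. It fell by 0.53 on the log2 scale (SE 0.11, adjusted p = 0.00296), and by 0.45 (SE 0.07) without siRNA A replicate 1. *STAG1* lay at 41.0 and 70.4 CPM with siRNA A and 54.1 and 53.9 with siRNA C, and fell by 0.54 (SE 0.17, adjusted p = 0.0252), or by 0.37 (SE 0.08) without siRNA A replicate 1. *SMC1A* lay at 106 and 172 CPM with siRNA A and 135 and 133 with siRNA C, with a log2 fold change of -0.37 (SE 0.15, adjusted p = 0.0700). Without siRNA A replicate 1 it fell by 0.22 (SE 0.07, adjusted p = 0.0250).

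*CTCF* lay at 98.1 and 115 CPM with *SMARCA1* siRNA A whereas siRNA C gave 109.8 and 109.9 CPM, around the control values, with a log2 fold change of 0.02 (95% interval -0.20 to 0.25). *SMC3* lay at 159 and 190.4 CPM with siRNA A and 166 and 169 with siRNA C, on both sides of the controls, with a log2 fold change of -0.02 (95% interval -0.23 to 0.19). *MAU2* lay at 44.4 and 46.1 CPM with siRNA A and 49.8 and 53.2 with siRNA C (log2 fold change 0.19, adjusted p = 0.135). Only the lower siRNA A value of *MAU2* was inside the control range. Without siRNA A replicate 1 the log2 fold changes were 0.08 for *CTCF*, 0.04 for *SMC3* and 0.20 for *MAU2*, and none of these passed.

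*NIPBL* (log2 of replicate 1 to replicate 2 -0.98), *STAG2* (-0.83) and *STAG1* (-0.78) showed the widest gaps within siRNA A, followed by *PDS5A* (-0.70), *SMC1A* (-0.69) and *PDS5B* (-0.68). *STAG2* lay at 71.1 and 126 CPM with siRNA A and 100.2 and 109.7 with siRNA C (log2 fold change -0.32, adjusted p = 0.177). *NIPBL* lay at 122 and 241 CPM with siRNA A and 198 and 213 with siRNA C (log2 fold change -0.01, 95% interval -0.47 to 0.46). *PDS5A* lay at 197 and 320.4 CPM with siRNA A and 249 and 259 with siRNA C (log2 fold change -0.33, adjusted p = 0.106). *PDS5B* lay at 65.1 and 104 CPM with siRNA A. For every gene of the set but *MAU2*, replicate 1 of siRNA A was the lowest and replicate 2 the highest of the 4 *SMARCA1* knockdown libraries. Without siRNA A replicate 1 the log2 fold changes were -0.14 for *STAG2*, 0.20 for *NIPBL*, -0.18 for *PDS5A* and 0.03 for *PDS5B*, and none of these passed.

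Leaving out one or the other siRNA A library gave different calls. Without replicate 1, *SMC1A*, *RAD21* and *STAG1* fell (3 of 10 genes, 48.1% of all genes). Without replicate 2, 7 of the 10 genes fell, with *STAG2*, *NIPBL*, *PDS5A* and *PDS5B* added (53.9% of all genes). With the length trend removed, *RAD21* and *STAG1* fell and *MAU2* rose (3 of 10 genes, 49.8% of all genes).

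**Figure D4:**
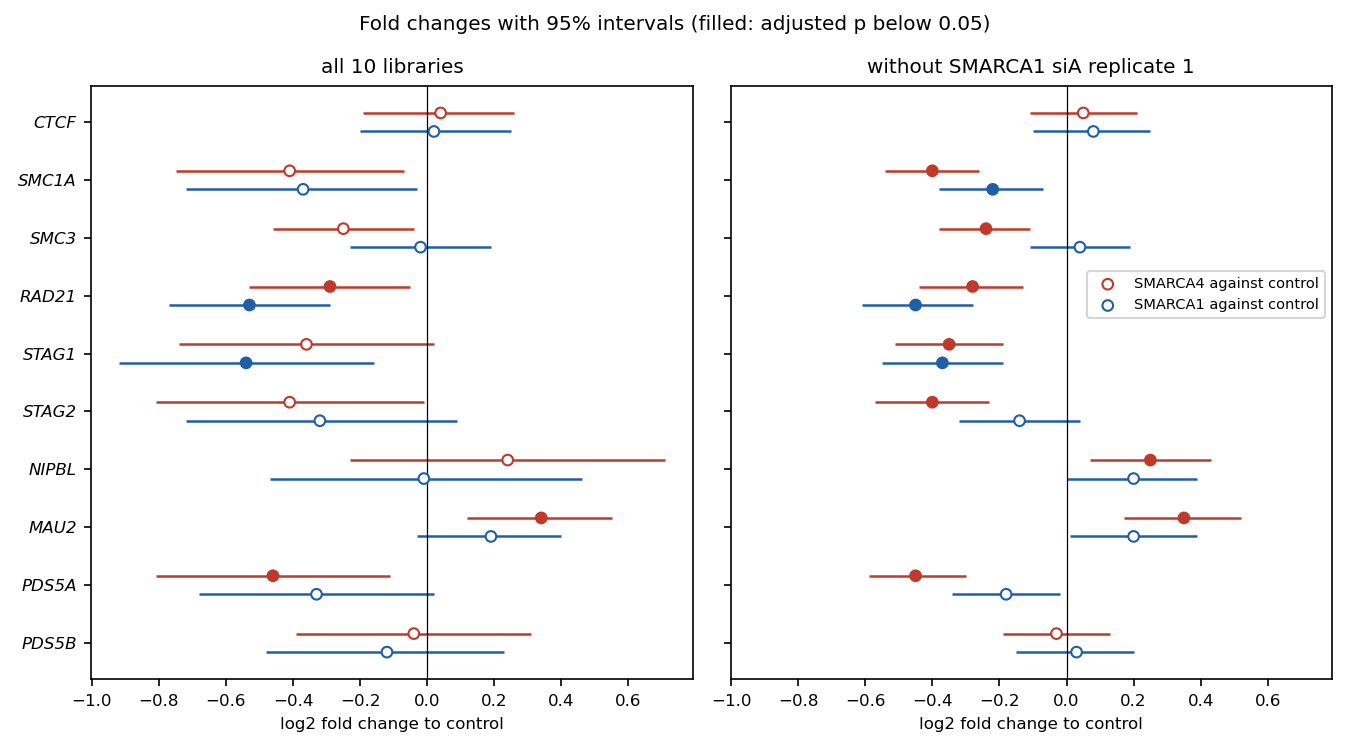
Log2 fold change to control (horizontal axis) with 95% intervals for the 10 genes in *SMARCA4* (red) and *SMARCA1* (blue) knockdown, with all 10 libraries (left) and without *SMARCA1* siRNA A replicate 1 (right). Filled points passed an adjusted p of 0.05. On the left 3 genes passed in *SMARCA4* and 2 in *SMARCA1* knockdown, and on the right 8 and 3, with narrower intervals.

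Both knockdowns were set against the same 2 controls, so they were also compared with each other. *SMC3* was lower with *SMARCA4* than with *SMARCA1* siRNAs, by a log2 difference of -0.23 (SE 0.08, adjusted p = 0.0430), with all 4 *SMARCA4* libraries (137 to 154 CPM) below all 4 *SMARCA1* libraries (159 to 190.4 CPM). It was the only one of the 10 genes to pass, against 35.4% of all genes. For *RAD21* the log2 difference was 0.24 (SE 0.09, adjusted p = 0.0633), with the *SMARCA1* libraries all lower. For *CTCF* it was 0.01 (95% interval -0.17 to 0.20). Without *SMARCA1* siRNA A replicate 1, *SMC1A*, *SMC3*, *STAG2* and *PDS5A* were lower with *SMARCA4* siRNAs (4 of 10 genes, 34.2% of all genes), and *SMC3* differed by -0.28 (SE 0.06, adjusted p = 0.00373). The log2 difference was then 0.16 (SE 0.06, adjusted p = 0.0743) for *RAD21* and -0.03 for *CTCF*. Without replicate 2, 6 genes passed (45.5% of all genes), and *SMC1A* then lay on the other side, higher with *SMARCA4* siRNAs by 0.16 (SE 0.06). With any single library left out, the log2 difference of *SMC3* between the knockdowns spanned -0.28 to -0.15, and its call depended on which library was left out.

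Partner ratios within a library do not depend on its scaling. Per exon length, *PDS5A* exceeded *PDS5B* 3.67- and 3.52-fold in the controls, 2.66-, 2.97-, 2.62- and 2.54-fold in the *SMARCA4* knockdown libraries (siRNA A, then B), and 3.27-, 3.32-, 2.99- and 2.90-fold in the *SMARCA1* knockdown libraries (siRNA A, then C). All 8 knockdown ratios lay below both controls. The log2 ratio differed by -0.21 between *SMARCA4* and *SMARCA1* knockdown (two-sided exact permutation test, 4 against 4 libraries, p = 0.0571, adjusted over the 4 ratios 0.114). *STAG1* to *STAG2* was 0.646 and 0.672 in the controls, 0.640, 0.595, 0.708 and 0.793 with *SMARCA4* siRNAs, and 0.604, 0.583, 0.565 and 0.514 with *SMARCA1* siRNAs. All 4 *SMARCA1* values lay below the controls while the *SMARCA4* values lay on both sides, with a log2 difference of 0.27 between the knockdowns (exact permutation p = 0.0571, adjusted 0.114).

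*SMC1A* to *SMC3*, equal partners in the ring, stood at 0.530 and 0.539 in the controls, 0.460 to 0.519 with *SMARCA4* siRNAs and 0.352 to 0.473 with *SMARCA1* siRNAs, below the controls in all 8 knockdown libraries. The knockdowns differed by 0.21 on the log2 scale (exact permutation p = 0.114, adjusted 0.152). *NIPBL* to *MAU2* lay at 3.84 and 4.23 in the controls, 3.44 to 3.95 with *SMARCA4* siRNAs and 2.42 to 4.60 with *SMARCA1* siRNAs, where replicates 1 and 2 of siRNA A were the extremes (log2 difference 0.14, exact permutation p = 0.629). The smallest p this design can give is 0.0286, and none of the 4 ratios reached the threshold after adjustment. Even that p cannot pass after adjustment unless most of the 4 ratios reach it together. Failing this test therefore says little about whether the ratios differ. The 4 libraries of a knockdown are 2 of each of its 2 siRNAs. The permutation treats them as exchangeable, so these p-values do not take the siRNA into account. Without *SMARCA1* siRNA A replicate 1 the log2 differences were -0.19 for *PDS5A* to *PDS5B*, 0.30 for *STAG1* to *STAG2*, 0.13 for *SMC1A* to *SMC3* and -0.03 for *NIPBL* to *MAU2*. With 1 library fewer the exact permutation test cannot give a p below 0.05, so it decides nothing here.

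Between the 2 siRNAs against *SMARCA4*, none of the 10 genes passed in edgeR (6.20% of all genes) or DESeq2 (9.83% of all genes). In edgeR 0 of the 10 had an unadjusted p below 0.05. *STAG2* (log2 difference of siRNA B to A -0.39, SE 0.21) and *PDS5A* (-0.33, SE 0.18) were furthest apart, and both passed without *SMARCA1* siRNA A replicate 1, with adjusted p of 0.0216 and 0.0226 (2 of 10 genes, 16.3% of all genes). Between the 2 siRNAs against *SMARCA1*, again 0 of the 10 genes passed in edgeR (0.0118% of all genes) or DESeq2 (2.88% of all genes). Of the 10, 0 had an unadjusted p below 0.05 in edgeR, as did 2898 of the 16899 genes tested. Against control, *SMARCA4* siRNA B gave 4 calls (*SMC3*, *STAG2*, *MAU2* and *PDS5A*, 45.0% of all genes), *SMARCA1* siRNA A gave 1 (*RAD21*, 34.8%) and *SMARCA1* siRNA C gave 2 (*RAD21* and *STAG1*, 45.3%). *SMARCA4* siRNA A gave 0 in edgeR (33.2% of all genes), with 1 gene at an unadjusted p below 0.05 and 0 called by DESeq2. Without *SMARCA1* siRNA A replicate 1 these counts were 8 for *SMARCA4* siRNA B (51.7% of all genes), 1 for *SMARCA1* siRNA A (26.6%), 6 for *SMARCA1* siRNA C (53.1%) and 6 for *SMARCA4* siRNA A (41.5%), and still 0 between the siRNAs against *SMARCA1* (1.51%).

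Profiles across the 8 knockdown libraries, as log2 CPM relative to the control mean, were compared among 9212 protein-coding genes with a mean of at least 10 CPM. *CTCF* moved between -0.12 and 0.11, and the genes nearest to it were *FAM53C*, *PMS2*, *TNPO3*, *VPS26A* and *SF3A1*, at root mean square differences of 0.0538 to 0.0689. Of the other 9 genes of the set, *PDS5B* was nearest to *CTCF*, at rank 791 (0.200). *SMC1A* moved between -0.73 and -0.04, and the nearest genes were *TCEA1*, *RHOBTB3*, *AHCTF1*, *TMEM184C* and *AZIN1*, at 0.0820 to 0.0958. *PDS5A* stood at rank 31 (0.124) and *STAG1* at rank 39 (0.132) from *SMC1A*, while *MAU2* stood at rank 5949 (0.695). The points share their libraries and controls, and the low *SMARCA1* siRNA A replicate 1 weighs in each value. With the median absolute difference in place of the root mean square, 0 of the 5 genes nearest to *CTCF* and 1 of the 5 nearest to *SMC1A* stayed in the list. Without *SMARCA1* siRNA A replicate 1, 2 of the 5 nearest to *CTCF* and 1 of the 5 nearest to *SMC1A* stayed, and from *SMC1A* the rank was 140 for *PDS5A*, 67 for *STAG1* and 3576 for *CTCF*.

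Because *PDS5A* and *STAG1* were the genes of the set nearest in profile to *SMC1A*, and *CTCF* was far from it, the sequence upstream of these 4 genes is shown, from 250 bases before the RefSeq start site up to the first base of the gene in the count tables (GRCh38.p14, 5′ to 3′ on the gene's strand). Capitals mark matches on either strand to the GC box GGGCGG, the CCAAT box, the ETS motif CCGGAAG, the NRF1 core TGCGCA or the E-box CACGTG, which overlapped nowhere in these windows. The last capitals of *CTCF* belong to a match that runs on into the gene.
CTCF, plus strand, chr16:67562276-67562466: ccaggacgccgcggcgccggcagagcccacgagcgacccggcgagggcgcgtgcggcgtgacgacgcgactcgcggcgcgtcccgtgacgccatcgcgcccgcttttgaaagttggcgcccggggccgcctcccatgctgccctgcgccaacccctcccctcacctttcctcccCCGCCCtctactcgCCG
SMC1A, minus strand, chrX:53422729-53422978: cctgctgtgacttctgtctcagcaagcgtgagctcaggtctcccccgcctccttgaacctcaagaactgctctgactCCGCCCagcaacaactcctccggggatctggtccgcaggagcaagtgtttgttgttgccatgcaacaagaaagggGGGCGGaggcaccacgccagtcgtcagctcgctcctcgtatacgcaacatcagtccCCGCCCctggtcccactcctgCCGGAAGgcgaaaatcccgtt
PDS5A, minus strand, chr4:39977957-39978161: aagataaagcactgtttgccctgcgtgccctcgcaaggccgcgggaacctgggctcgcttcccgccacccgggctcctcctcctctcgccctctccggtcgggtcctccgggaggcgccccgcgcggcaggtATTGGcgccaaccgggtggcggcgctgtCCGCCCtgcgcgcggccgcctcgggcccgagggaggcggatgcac
STAG1, minus strand, chr3:136752404-136752628: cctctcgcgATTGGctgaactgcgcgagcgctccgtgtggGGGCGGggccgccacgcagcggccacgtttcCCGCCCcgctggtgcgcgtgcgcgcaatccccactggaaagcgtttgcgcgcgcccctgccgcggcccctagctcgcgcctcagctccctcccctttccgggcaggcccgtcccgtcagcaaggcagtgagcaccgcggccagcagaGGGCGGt

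Promoter windows of 300 bases (250 before to 50 after the start site) were found in the RefSeq table for 9 of the 10 genes, with *RAD21* not analysed here. All 9 genes held a GC box in at least 1 window, as did 45.0% of 35116 promoters of this length. The CCAAT box was found for *PDS5A*, *PDS5B*, *STAG1* and *STAG2* (34.6% of all promoters), the ETS motif for *NIPBL* and *SMC1A* (10.3%) and the NRF1 core for *PDS5B* (8.24%). The E-box (7.26% of all promoters) was found in none of the 9. So *SMC1A*, *PDS5A* and *STAG1* shared no searched motif other than the GC box, which *CTCF* also held.

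Of 19 genes that regulate cohesin, 11 fell and 1 rose in *SMARCA4* knockdown (median log2 fold change -0.52), and 7 fell and 1 rose in *SMARCA1* knockdown (median -0.14), against medians of 0.00 over all genes. Of all genes, 22.3% fell and 22.8% rose with *SMARCA4* siRNAs and 23.0% fell and 23.8% rose with *SMARCA1* siRNAs, so the called regulators in *SMARCA1* knockdown, 8 of 19, were not above the 46.8% of all genes. *ESCO1*, which acetylates SMC3, rose in both, by 0.73 (SE 0.16) and 0.55 (SE 0.16). With *SMARCA1* siRNA A alone its log2 fold change was 0.34 and did not pass (edgeR adjusted p = 0.16). *TIMELESS*, *DDX11*, *CHTF18* and *HASPIN* passed in neither knockdown. *PTTG1*, which encodes securin, went from 37.5 CPM ± 0.319 (SD, n = 2) in controls to 17.8 ± 5.07 (n = 4) in *SMARCA4* knockdown and fell by 1.10 (SE 0.12), and it fell by 0.81 (SE 0.12) with *SMARCA1* siRNAs. Its log2 fold changes with *SMARCA4* siRNAs A and B, -0.80 and -1.41, differed (edgeR adjusted p = 0.0367). *DSCC1*, a subunit of a clamp loader that aids cohesion, fell by 1.06 with *SMARCA4* siRNAs and by 0.83 with *SMARCA1* siRNAs (SE 0.10 in both). *SGO1*, a protector of centromeric cohesin, and its relative *SGO2* fell in both knockdowns, *SGO1* by 1.03 with *SMARCA4* and 0.63 with *SMARCA1* siRNAs (SE 0.10 in both) and *SGO2* by 0.52 and 1.06 (SE 0.11 in both). The log2 fold changes of *SGO2* with *SMARCA4* siRNAs A and B, -0.22 and -0.82, differed (edgeR adjusted p = 0.0301). Only siRNA B passed alone. *PLK1*, a mitotic kinase that removes cohesin from chromosome arms, fell by 0.88 with *SMARCA4* and 0.96 with *SMARCA1* siRNAs (SE 0.11 in both). *WAPL*, the release factor, had log2 fold changes of 0.02 and 0.05 (SE 0.16 in both).

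Germline forms of cohesin subunits were at low levels. *REC8*, the meiotic counterpart of *RAD21*, went from 0.957 CPM ± 0.170 (SD, n = 2) in controls to 5.87 ± 0.981 (n = 4) with *SMARCA4* siRNAs and 3.72 ± 0.823 (n = 4) with *SMARCA1* siRNAs, and rose by 2.60 (SE 0.30, adjusted p = 0.000111) and 1.95 (SE 0.30, adjusted p = 0.000680). *STAG3* also rose in both, from a control mean of 0.269 CPM. It did not pass with *SMARCA4* siRNA A alone or *SMARCA1* siRNA A alone (edgeR adjusted p = 0.059 and 0.274). *SMC1B* and *RAD21L1* did not pass in either knockdown, and *CTCFL* was removed by the filter on low counts.

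Condensin, the other ring that shapes chromosomes, and the SMC5/6 complex were listed with 15 genes, of which 6 fell and 2 rose with *SMARCA4* siRNAs and 7 fell and 3 rose with *SMARCA1* siRNAs, where 45.1% and 46.8% of all genes passed in either direction. *SMC2*, shared by both condensins, fell by 1.10 (SE 0.15) with *SMARCA1* siRNAs and by 0.84 (SE 0.15) with *SMARCA4* siRNAs. *SMC4*, its partner, fell by 0.84 (SE 0.13) and 0.73 (SE 0.14) with *SMARCA1* and *SMARCA4* siRNAs. With *SMARCA4* siRNA A alone *SMC2* and *SMC4* stood at -0.50 and -0.42 and did not pass (edgeR adjusted p = 0.053 and 0.066). *NCAPD2*, of condensin I, fell by 0.85 and 0.61 (SE 0.10 in both) with *SMARCA4* and *SMARCA1* siRNAs, while *NCAPD3*, of condensin II, rose by 0.78 and 1.09 (SE 0.17 in both). The log2 fold changes of *NCAPD2* with *SMARCA4* siRNAs A and B, -0.45 and -1.25, differed (edgeR adjusted p = 0.00931). *NCAPG* and *NCAPG2*, further condensin subunits, fell by 0.68 (SE 0.10) and 0.73 (SE 0.11) with *SMARCA4* siRNAs and by 0.43 (SE 0.10) and 0.47 (SE 0.11) with *SMARCA1* siRNAs. With *SMARCA1* siRNA A alone *NCAPG* stood at -0.32 and did not pass (edgeR adjusted p = 0.0624). *NSMCE4A*, of the SMC5/6 complex, rose by 0.75 and 0.48 (SE 0.13 in both) with *SMARCA4* and *SMARCA1* siRNAs. With *SMARCA1* siRNA A alone it stood at 0.36 and did not pass (edgeR adjusted p = 0.0799). Among 13 other factors linked to looping, 3 rose and 1 fell with *SMARCA4* siRNAs and 3 rose and 2 fell with *SMARCA1* siRNAs. This was a smaller share than that of all genes in both with all 10 libraries, but not without *SMARCA1* siRNA A replicate 1. *BRD2*, a bromodomain reader of acetylated histones, rose by 1.08 (SE 0.13) and 0.82 (SE 0.12) with *SMARCA4* and *SMARCA1* siRNAs, and *CHD8*, a remodeler that binds CTCF, rose by 0.81 and 0.49 (SE 0.13 in both). With *SMARCA1* siRNA A alone *CHD8* stood at 0.27 and did not pass (edgeR adjusted p = 0.188). *MED12*, of the Mediator kinase module, rose by 0.59 (SE 0.11) with *SMARCA4* siRNAs and had a log2 fold change of 0.22 (SE 0.11, adjusted p = 0.136) with *SMARCA1* siRNAs. *YY1* fell by 0.27 (SE 0.10) in both knockdowns, but not alike with each siRNA. Its log2 fold change was -0.02 with *SMARCA4* siRNA A and -0.53 with siRNA B, which differed (edgeR adjusted p = 0.0326). With *SMARCA1* siRNAs A and C it was -0.19 and -0.35, and only siRNA C passed. Without *SMARCA1* siRNA A replicate 1, the counts of the cohesin regulators were 11 lower and 1 higher with *SMARCA4* siRNAs and 7 lower and 2 higher with *SMARCA1* siRNAs, those of the other SMC complexes were 7 lower and 2 higher and 7 lower and 5 higher, and those of the other looping factors were 5 higher and 2 lower in both (52.0% and 48.1% of all genes). All 26 genes of the 4 lists that passed in *SMARCA4* knockdown and all 25 that passed in *SMARCA1* knockdown kept their call and direction, with log2 fold changes moved by at most 0.01 and 0.16.

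**Figure D5:**
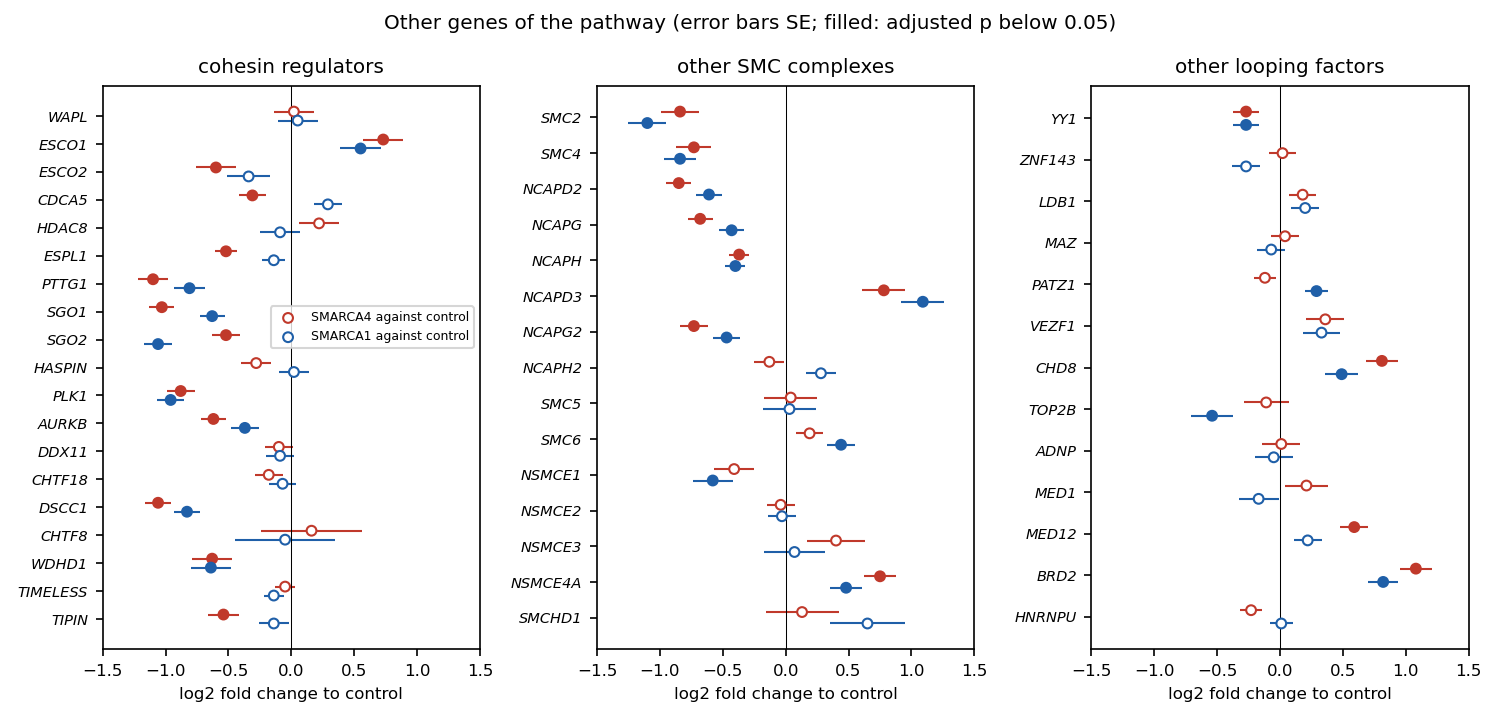
Log2 fold change to control (horizontal axis) with SE for 19 cohesin regulators, 15 genes of other SMC complexes and 13 other looping factors in *SMARCA4* (red) and *SMARCA1* (blue) knockdown. Filled points passed an adjusted p of 0.05. *PTTG1*, *DSCC1* and *SMC2* lie well to the left and *ESCO1*, *NCAPD3* and *BRD2* to the right in both knockdowns.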

How the data were processed

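Poly-A libraries of VCaP cells, 2 per group, were grouped by the labels of the samples. The authors aligned reads with HISAT2 (2.1.0) to hg38 and counted them per gene with featureCounts (1.5.2) on GENCODE annotation, and the deposited values are raw counts. The release is not given in the sources used here. Counts were tested with edgeR 4.0.16 in R 4.3.3: filterByExpr (minimum count 10, total 15), TMM scaling, 1 quasi-likelihood fit of all 10 libraries as 5 groups, and Benjamini-Hochberg adjustment over 16899 genes. CPM values use these scaled library sizes, except those of the cell markers and of the 3 counts below, which use unscaled library totals. Partner ratios were tested by exact permutation (scipy 1.17.1), and the code was tested on simulated data. The members and gene lists were chosen with earlier results of these data known. Named beside the members were, from each list and knockdown, the 3 largest rises and falls among genes that passed with the knockdown and each siRNA alone at a mean of at least 1 CPM, and the 5 genes nearest in profile to *CTCF* and *SMC1A*. The values of the list genes in the other knockdown are given whether or not each siRNA passed there. Some genes of the lists are not reported here. *WAPL*, *STAG3*, *SMC1B*, *RAD21L1*, *CTCFL*, *YY1*, *TIMELESS*, *DDX11*, *CHTF18* and *HASPIN* were named after their values were seen. Alternatives were DESeq2 1.42.0, other scalings and filters, a replicate block, left-out libraries, subsets of groups, and, chosen after seeing the data, an offset for exon length, the fit without both *SMARCA1* siRNA A libraries and profiles without replicate 1 of that group. At these depths 3 counts correspond to 0.0865 to 0.126 CPM, which covers counting error only.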

Additional observations from a re-analysis of the deposited data

Results flagged for a closer look

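*SMC3* was flagged because its effect differed between the knockdowns, with a log2 difference of -0.23 (SE 0.08, adjusted p = 0.0430) between *SMARCA4* and *SMARCA1* siRNAs. In groups of 4 knockdown libraries, 3 of 28 sets of values had 1 library far from the other 3 by Dixon's test at 95%, a criterion that chance meets in about 1 of 20 groups. *RAD21* lay at 623 CPM in *SMARCA4* siRNA B replicate 2, below the other 3 *SMARCA4* knockdown libraries (666 to 673 CPM). *MAU2* lay at 49.6 CPM in *SMARCA4* siRNA A replicate 2, below the other 3 (54.7 to 55.2 CPM). The log2 count ratio of *SMC1A* to *SMC3* was -0.02 in *SMARCA4* siRNA B replicate 2, above the other 3.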

How the results depend on the processing

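The main limit is the spread. Shares in parentheses are of all genes under the same setting. In *SMARCA4* knockdown 3 of the 10 genes passed (45.1%), and the count was 0 at an adjusted p of 0.01 (29.8%). It was 6 with upper quartile scaling (45.1%) and 5 with library totals (44.9%), without a filter (24.7%) and with at least 1 CPM in 2 libraries (50.8%). With the *SMARCA4* knockdown and control libraries alone 8 genes passed (51.5%). The count was 7 with the length offset (47.6%), 8 without both *SMARCA1* siRNA A libraries (54.0%) and 0 with *SMARCA4* siRNA A alone (33.2%). It fell with some single libraries left out and rose with others. In *SMARCA1* knockdown 2 passed (46.8%), and the count was 1 at an adjusted p of 0.01 (30.3%), 5 without a filter (25.8%), 6 without both siRNA A libraries (55.0%), 1 with siRNA A alone (34.8%), and 0 to 7 with single libraries left out (25.1% to 53.9%). Between the knockdowns 1 passed (35.4%), and the count was 2 without a filter (20.6%), with at least 1 CPM in 2 libraries (40.0%) and with the length offset (37.6%), and 0 to 6 with single libraries left out (20.9% to 45.5%). Between siRNAs of 1 target, the count of 0 became 2 for *SMARCA4* without both *SMARCA1* siRNA A libraries (17.5%), and lay at 0 to 2 for *SMARCA4* (0.272% to 16.4%) and 0 to 3 for *SMARCA1* (0 to 10.9%) with single libraries left out. Samples of the same replicate number deviated together in some pairs of groups and not in others (correlations of -0.36 to 0.60). The correlation was 0.60 between *SMARCA4* siRNAs A and B and 0.51 between *SMARCA4* siRNA B and *SMARCA1* siRNA A. Whether the numbers pair the samples cannot be decided from this, since pairing within only some groups would leave other pairs uncorrelated. With the replicate number as a block, 3 genes passed in *SMARCA4* knockdown (46.1%), with *SMC1A* (adjusted p = 0.0428) in place of *RAD21* (0.0527), 2 in *SMARCA1* knockdown (47.4%) and 0 between them (37.0%, *SMC3* at 0.0506). The cause of these changes was not tested beyond the libraries and filters named.

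Values near 0 changed sign. With upper quartile scaling *CTCF* stood at 0.00 in *SMARCA4* and -0.01 in *SMARCA1* knockdown, and with library totals at 0.00 in the latter. Between knockdowns it was -0.11 with the length offset and -0.01 without both siRNA A libraries. *PDS5B* was 0.07 with *SMARCA4* siRNA A alone, and with the length offset 0.05 in *SMARCA1* knockdown and -0.06 between knockdowns. In *SMARCA1* knockdown *NIPBL* was 0.14 with the length offset, 0.08 without both siRNA A libraries and 0.08 with siRNA C alone, and *SMC3* was 0.01 with siRNA A alone. With single libraries left out, log2 fold changes spanned -0.04 to 0.04 for *PDS5B* in *SMARCA4* knockdown, and in *SMARCA1* knockdown -0.01 to 0.08 for *CTCF*, -0.06 to 0.04 for *SMC3*, -0.27 to 0.20 for *NIPBL* and -0.29 to 0.03 for *PDS5B*. Between knockdowns they spanned -0.03 to 0.08 for *CTCF*, -0.18 to 0.16 for *SMC1A*, -0.26 to 0.15 for *STAG2*, -0.27 to 0.08 for *PDS5A* and -0.06 to 0.28 for *PDS5B*. The log2 ratio of *NIPBL* to *MAU2* spanned -0.03 to 0.28. DESeq2 and RLE scaling left each count of passing genes within 1.5 times of the value above, with 1 exception. With *SMARCA1* siRNA A alone, DESeq2 called 2 genes and edgeR 1. In *SMARCA4* knockdown, DESeq2 called *SMC1A* in place of *RAD21*. With library totals, *RAD21* passed between the knockdowns in place of *SMC3*.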
